A study of Mus musculus with 12 samples.

Results

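The genes described here are 10 of the 36186 listed for each library, 5 of MHC class II antigen presentation (H2-Aa, H2-Ab1, H2-Eb1, Cd74 and Ciita) and 5 of mast cells (Cma1, Mcpt4, Cpa3, Tpsb2 and Kit). They were found by their symbols and had been chosen by their expression across the genotypes of these same libraries, so their values are given as a description. Where they pass a test over all genes this is counted but nothing is read from it. RNA was sequenced from whole kidneys of mouse embryos at stage E18.5, in 12 libraries of 4 genotypes with 3 embryos each. The question of the series is what the posterior (Abdominal-B type) Hox genes do in the forming kidney.

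Wild type embryos were the controls. Hoxa-/- Hoxc+/- embryos were homozygous mutant for Hoxa9, Hoxa10 and Hoxa11 and heterozygous for Hoxc9, Hoxc10 and Hoxc11. Hoxa+/- Hoxc-/- embryos had the reverse, with the Hoxa genes heterozygous and the Hoxc genes homozygous mutant. Hoxa-/- Hoxc-/- embryos were homozygous mutant for all 6 genes by their labels. The study describes the mutants it sequenced as keeping at least 1 normal Hoxa11 allele, which disagrees with these labels. It also reports that no kidneys were found at this stage in mutants homozygous for all 6 genes. The 3 libraries are named here by their label, and their Hoxa11 alleles are not known. All embryos were of a mixed strain background, and the mutations are germline frameshifts that every cell of the embryo carries.

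MHC class II molecules are pairs of an alpha and a beta chain that carry peptides of engulfed proteins to the surface of dendritic cells, B cells and macrophages, where CD4 T cells read them. The invariant chain Cd74 guards the peptide groove on the way, and the coactivator Ciita switches the genes on. Mast cells are tissue-resident granulocytes that depend on the receptor Kit and its ligand, store proteases, histamine and heparin in granules, and in connective tissue are known by chymases, tryptases and carboxypeptidase A3.

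Levels are in CPM, counts of a gene after all 12 libraries are brought to 1 common size, with sizes adjusted by the TMM method. Total counts ranged from 28616878 in Hoxa-/- Hoxc+/- embryo 20 to 47067926 in Hoxa+/- Hoxc-/- embryo 110. In these libraries 3 counts, the floor used here, correspond to 0.0614 to 0.116 CPM, which covers counting error only. Bulk tissue was measured, so fewer cells of a type and less RNA per cell cannot be told apart.

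Reads of all 6 mutated genes were present in every library. Hoxa10 was at 125, 152 and 165 CPM in wild type, 153, 103 and 107 CPM in Hoxa-/- Hoxc+/-, 113, 104 and 114 CPM in Hoxa+/- Hoxc-/- and 100.3, 104 and 112 CPM in Hoxa-/- Hoxc-/- kidneys, and Hoxc10 at 50.2, 58.8 and 66.9 CPM, 121, 45.3 and 41.6 CPM, 32.1, 36.6 and 51.6 CPM and 37.8, 29.1 and 35.8 CPM in the same order of groups. Both were lower in each Hoxa-/- Hoxc-/- library than in any wild type library, as were Hoxc9, at 11.4, 11.7 and 15.6 CPM in wild type and 11.1, 10.5 and 10.4 CPM in Hoxa-/- Hoxc-/- kidneys, and Hoxc11, at 1.56, 1.59 and 1.83 CPM and 1.04, 0.892 and 1.24 CPM. Hoxa9, at 24.3, 24.3 and 26.4 CPM and 26.5, 25.9 and 23.96 CPM, and Hoxa11, at 44.2, 52.7 and 59.7 CPM and 37.1, 38.2 and 52.9 CPM, overlapped between these groups, and Hoxa9 was above every wild type library in the other mutants, at 40.8, 26.7 and 27.1 CPM in Hoxa-/- Hoxc+/- and 29.6, 32.0 and 30.9 CPM in Hoxa+/- Hoxc-/- kidneys. Counts over a whole gene do not show which allele was read, and they were not used to check the labels.

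Some libraries differed in ways that the genotype does not describe. The library of Hoxa-/- Hoxc+/- embryo 20 stood apart: over 16260 genes its log2 CPM correlated with the other libraries at 0.940 to 0.976 (median 0.955), where the other 11 correlated among themselves at 0.970 or more. Several results are also given without it. The Hoxa+/- Hoxc-/- libraries came from another sequencing run than the other 9, so that genotype and its sequencing run cannot be told apart. Xist, transcribed from the inactive X chromosome of females, was at 189.6 and 253 CPM in Hoxa-/- Hoxc+/- embryos 31 and 33, 336 CPM in Hoxa+/- Hoxc-/- embryo 110 and 72.6 and 60.1 CPM in Hoxa-/- Hoxc-/- embryos 27 and 29, and at no more than 0.138 CPM in the other 7. The groups were therefore unequal in sex.

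Mast cell protease transcripts were scarce in wild type kidneys and highest in Hoxa-/- Hoxc-/- kidneys. Cma1, the mast cell chymase (Entrez 17228, chromosome 14 from 55941451 to 55944675), was at 0.265, 0.277 and 0.347 CPM in wild type, 0.695, 2.05 and 3.46 CPM in Hoxa-/- Hoxc+/- embryos 20, 31 and 33, 1.17, 1.08 and 1.29 CPM in Hoxa+/- Hoxc-/- and 8.57, 8.28 and 7.31 CPM in Hoxa-/- Hoxc-/- embryos 24, 27 and 29. The Hoxa-/- Hoxc-/- libraries were all above every other library, the wild type libraries were all below, and both single homozygous groups lay between and overlapped each other. The group means were 0.296 ± 0.0440 CPM, 2.07 ± 1.38 CPM, 1.18 ± 0.101 CPM and 8.05 ± 0.660 CPM (SD, n = 3 each), and 27.2 times as high in Hoxa-/- Hoxc-/- as in wild type kidneys.

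Cpa3, which codes for carboxypeptidase A3 of the same granules (Entrez 12873, chromosome 3 from 20215616 to 20242209), was at 0.716, 0.830 and 0.594 CPM in wild type, 1.04, 1.86 and 2.88 CPM in Hoxa-/- Hoxc+/-, 2.14, 1.49 and 1.66 CPM in Hoxa+/- Hoxc-/- and 10.7, 9.12 and 8.24 CPM in Hoxa-/- Hoxc-/- kidneys. Its order was that of Cma1, with no overlap between Hoxa-/- Hoxc-/- kidneys and the others or between wild type and the others. Tpsb2, a tryptase (Entrez 17229, chromosome 17 from 25366308 to 25368096), was at 0.398, 0.923 and 0.545 CPM, 0.425, 1.95 and 2.08 CPM, 1.50, 1.21 and 1.68 CPM and 8.54, 6.57 and 7.09 CPM in the same order of groups. Hoxa-/- Hoxc-/- kidneys were again above all others, and here Hoxa-/- Hoxc+/- embryo 20, at 0.425 CPM, was within the wild type range. Tpsb2 and its neighbour Tpsab1 are close in sequence. Reads that map to several places were removed by the authors, so reads that these tryptases share may be missing from both.

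Mcpt4, another chymase of connective tissue mast cells (Entrez 17227, chromosome 14 from 56059744 to 56062310), had the fewest reads, with 0, 0 and 0 counts in wild type, 5, 4 and 4 in Hoxa-/- Hoxc+/-, 2, 6 and 4 in Hoxa+/- Hoxc-/- and 22, 18 and 4 in Hoxa-/- Hoxc-/- kidneys. These correspond to 0.575, 0.459 and 0.110 CPM in Hoxa-/- Hoxc-/- embryos 24, 27 and 29. Embryos 24 and 27 were above all other libraries, while embryo 29 was within the range of Hoxa-/- Hoxc+/- and Hoxa+/- Hoxc-/- kidneys. Against the floor of 3 counts per library in wild type, the Hoxa-/- Hoxc-/- mean was at least 5.13-fold higher. Reads of the related genes Mcpt1, Mcpt2 and Cma2 stayed at or below 4 counts in every library, and reads shared with such relatives may be missing from the counts.

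Kit, the receptor for stem cell factor (Entrez 16590, chromosome 5 from 75574987 to 75656722), did not follow the proteases. It was at 43.3, 43.7 and 44.9 CPM in wild type, 44.7, 42.0 and 39.0 CPM in Hoxa-/- Hoxc+/-, 41.1, 51.5 and 48.9 CPM in Hoxa+/- Hoxc-/- and 36.7, 39.7 and 35.2 CPM in Hoxa-/- Hoxc-/- kidneys. The Hoxa-/- Hoxc-/- libraries were all below the wild type libraries and overlapped Hoxa-/- Hoxc+/-. Per length of exons, the mean Kit level was 8.36 CPM per kilobase in wild type, against 0.272 for Cma1, 0.492 for Cpa3 and 0.390 for Tpsb2. In Hoxa-/- Hoxc-/- kidneys the same levels were 7.08 for Kit, 7.39 for Cma1, 6.46 for Cpa3, 4.64 for Tpsb2 and 0.344 CPM per kilobase for Mcpt4. Cma1 and Cpa3 thus came near the level of Kit per length in these kidneys, far below which they lay in wild type. Which cells carried the Kit transcripts was not tested, so the level of Kit is not read as one of mast cells.

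**Figure D1:**
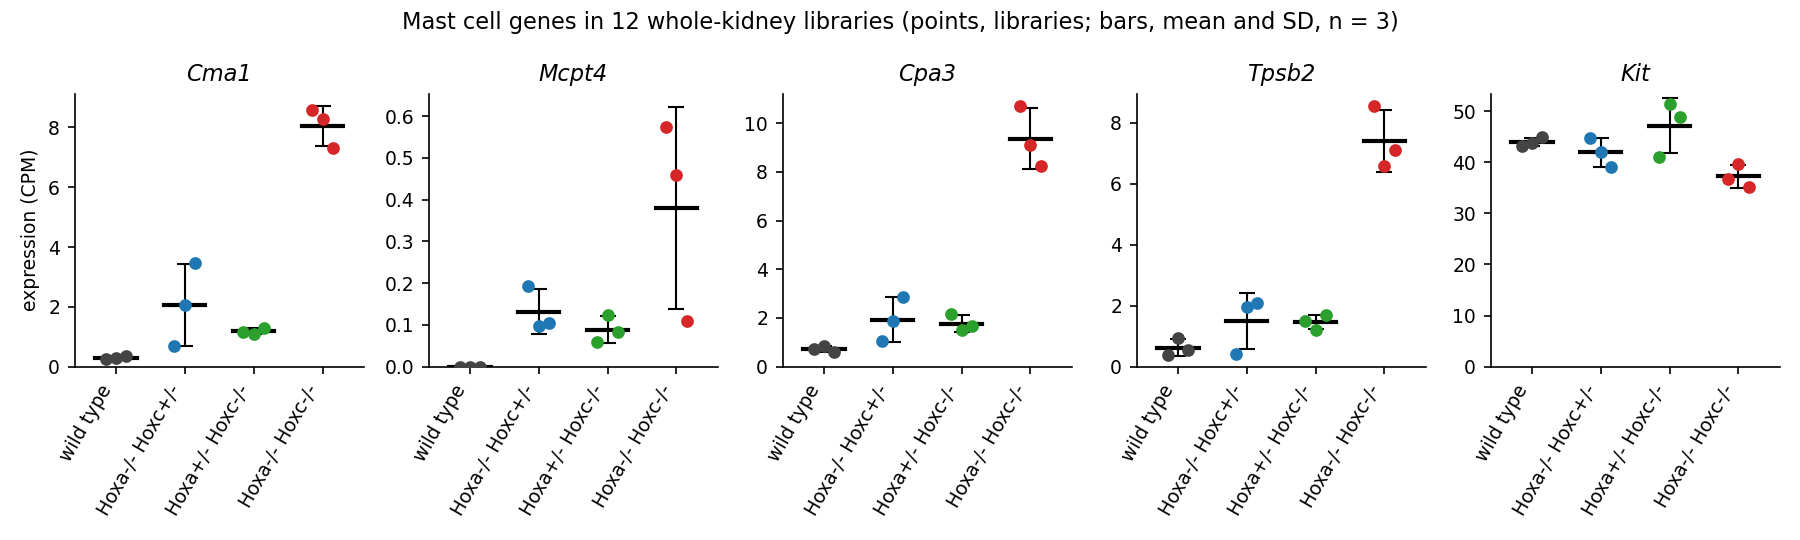
Expression of the 5 mast cell genes in CPM (vertical axes, each starting at 0) by genotype (horizontal axes). Points are libraries and black bars the mean and SD of 3. Cma1, Cpa3 and Tpsb2 lie between 6.57 and 10.7 CPM in Hoxa-/- Hoxc-/- kidneys, above every other library, while Kit lies between 35.2 and 51.5 CPM over all libraries.

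Promoter sequences of RefSeq (build GRCm38.p6) matched 6 of the 10 genes, H2-Aa, H2-Eb1, Cma1, Mcpt4, Cpa3 and Kit, each with 250 bases before and 50 after the transcript's start. H2-Ab1, Cd74, Ciita and Tpsb2 had no entry. The 3 proteases are shown because their means were highest in the same genotype. GATA factors, among them Gata2 of mast cells, are known to bind the letters GATA, and GATAA was searched on both strands, where it reads TTATC on the other. Each of the 3 protease promoters held 1 such match, at -194 to -190 in Cma1, -102 to -98 in Mcpt4 and -45 to -41 in Cpa3, counted from 0 at the start base. The stretches lie on the minus strand at chr14:55944835-55944899, chr14:56062378-56062442 and chr3:20242192-20242256, and capitals mark the match.
Cma1: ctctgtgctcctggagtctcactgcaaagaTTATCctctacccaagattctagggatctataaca
Mcpt4: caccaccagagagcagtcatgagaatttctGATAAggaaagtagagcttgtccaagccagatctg
Cpa3: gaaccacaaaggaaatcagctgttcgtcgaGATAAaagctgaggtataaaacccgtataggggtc
The same letters occur in 25.4% of the 32851 promoters of that length. The letters CATGTG on either strand, a kind of E box that the mast cell factor Mitf is known to bind and that 14.2% of all promoters hold, were in none of these 6 windows, and the Kit window held none of the letters searched. A match is a description of the sequence, and binding was not tested.

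The MHC class II chains differed between libraries of the same genotype. H2-Ab1, the beta chain of I-A (Entrez 14961, chromosome 17 from 34263227 to 34269418), was at 12.5, 5.35 and 4.60 CPM in wild type embryos 30, 37 and 55, 23.99, 4.87 and 5.01 CPM in Hoxa-/- Hoxc+/- embryos 20, 31 and 33, 5.84, 4.56 and 15.8 CPM in Hoxa+/- Hoxc-/- embryos 38 and 110 and the last of that genotype, and 13.2, 16.7 and 16.2 CPM in Hoxa-/- Hoxc-/- embryos 24, 27 and 29. In each of the first 3 groups 1 library was high and the other pair low, and the Hoxa-/- Hoxc-/- libraries were all high. They lay above every wild type library, with the last Hoxa+/- Hoxc-/- embryo among them and embryo 20, the highest of all 12, above them.

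H2-Aa, the alpha chain of I-A (Entrez 14960, chromosome 17 from 34282744 to 34287823), was at 2.33, 2.38 and 2.20 CPM in wild type, 6.41, 1.93 and 2.06 CPM in Hoxa-/- Hoxc+/-, 1.88, 2.05 and 4.13 CPM in Hoxa+/- Hoxc-/- and 2.77, 4.36 and 5.52 CPM in Hoxa-/- Hoxc-/- kidneys. Embryo 20 and the last Hoxa+/- Hoxc-/- embryo were again the high ones of their groups, and the Hoxa-/- Hoxc-/- libraries were again above every wild type library. H2-Eb1, the beta chain of I-E (Entrez 14969, chromosome 17 from 34305867 to 34316674), was at 6.18, 3.00 and 3.61 CPM, 10.0, 0.820 and 1.08 CPM, 1.20, 1.27 and 5.62 CPM and 3.55, 5.17 and 9.70 CPM in the same order of groups. All 4 groups overlapped in H2-Eb1, and its lowest values were those of Hoxa-/- Hoxc+/- embryos 31 and 33 and Hoxa+/- Hoxc-/- embryos 38 and 110, below every wild type library. H2-Eb1 and H2-Eb2 are related in sequence, and H2-Eb2 was at 0 to 0.464 CPM.

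Transcripts of the chains were therefore not in a fixed proportion. The ratio of H2-Eb1 to H2-Ab1 CPM was 0.493, 0.560 and 0.785 in wild type, 0.419, 0.168 and 0.216 in Hoxa-/- Hoxc+/-, 0.206, 0.278 and 0.356 in Hoxa+/- Hoxc-/- and 0.269, 0.310 and 0.599 in Hoxa-/- Hoxc-/- kidneys. It compares libraries, not the levels of the genes. The MHC genes differ in sequence between mouse strains, and with a mixed background the alleles of each embryo were not tested.

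H2-Aa and H2-Eb1 are the class II genes with a promoter entry and are shown for the elements through which Ciita is known to act, the X box, bound by the RFX complex, and the Y box, bound by NF-Y. The letters searched on both strands were AGNNACNGA as a core of the X box and GATTGG, which reads CCAATC on the other strand, as a core of the Y box. H2-Eb1 held the X box letters at -92 to -84 and the Y box letters at -60 to -55 and, on the other strand, at -35 to -30. H2-Aa held the Y box letters at -49 to -44 and no match to the X box letters as searched. None of the matches in the members' promoters overlapped another. Each stretch runs from -110 to -21, H2-Aa on the minus strand at chr17:34287844-34287933 and H2-Eb1 on the plus strand at chr17:34305757-34305846, with matches in capitals.
H2-Aa: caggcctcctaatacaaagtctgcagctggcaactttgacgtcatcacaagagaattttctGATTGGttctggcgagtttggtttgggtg
H2-Eb1: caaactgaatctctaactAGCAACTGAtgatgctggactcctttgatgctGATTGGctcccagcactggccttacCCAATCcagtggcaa
Of all 32851 promoters 17.7% held the X box letters, 16.1% the Y box letters and 2.81% both. H2-Eb1 also held TTATC from 3 to 7 after its start.

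Cd74, the invariant chain (Entrez 16149), was at 7.16, 7.33 and 7.55 CPM in wild type, 13.3, 7.38 and 9.68 CPM in Hoxa-/- Hoxc+/-, 11.8, 9.33 and 11.8 CPM in Hoxa+/- Hoxc-/- and 14.3, 23.4 and 17.3 CPM in Hoxa-/- Hoxc-/- kidneys. It was the class II gene with the least overlap: the Hoxa-/- Hoxc-/- libraries were above all others, the wild type libraries varied least, and Hoxa+/- Hoxc-/- libraries were all above wild type. Ciita, the coactivator (Entrez 12265, chromosome 16 from 10480014 to 10531064), was at 1.43, 1.59 and 1.31 CPM, 0.618, 1.57 and 2.32 CPM, 3.05, 2.01 and 1.91 CPM and 0.967, 1.43 and 1.76 CPM in the same order of groups. Its highest mean was in Hoxa+/- Hoxc-/- kidneys, 2.32 ± 0.635 CPM (SD, n = 3), and Hoxa-/- Hoxc-/- kidneys, at 1.38 ± 0.398 CPM, overlapped wild type. The library with the most H2-Ab1, embryo 20, had the least Ciita.

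The order of the group means was Hoxa-/- Hoxc-/- first for H2-Aa, H2-Ab1, H2-Eb1 and Cd74, with or without embryo 20. With it, neighbours in that order overlapped in all but 1 instance, Hoxa-/- Hoxc-/- above Hoxa+/- Hoxc-/- for Cd74. The order of the other groups rested on this embryo for the 3 chains. Without it Hoxa-/- Hoxc+/- kidneys were last for each chain, and for H2-Aa and H2-Eb1 they did not overlap the group before them. Per length of exons, H2-Ab1 was at 6.19, Cd74 at 5.19, H2-Eb1 at 2.55, H2-Aa at 2.04 and Ciita at 0.176 CPM per kilobase in wild type on average. In Hoxa-/- Hoxc-/- kidneys these levels were 12.7, 13.0, 3.68, 3.74 and 0.168 CPM per kilobase, with Cd74 rather than H2-Ab1 at the top. Whether these small differences in order exceed the spread was not tested.

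**Figure D2:**
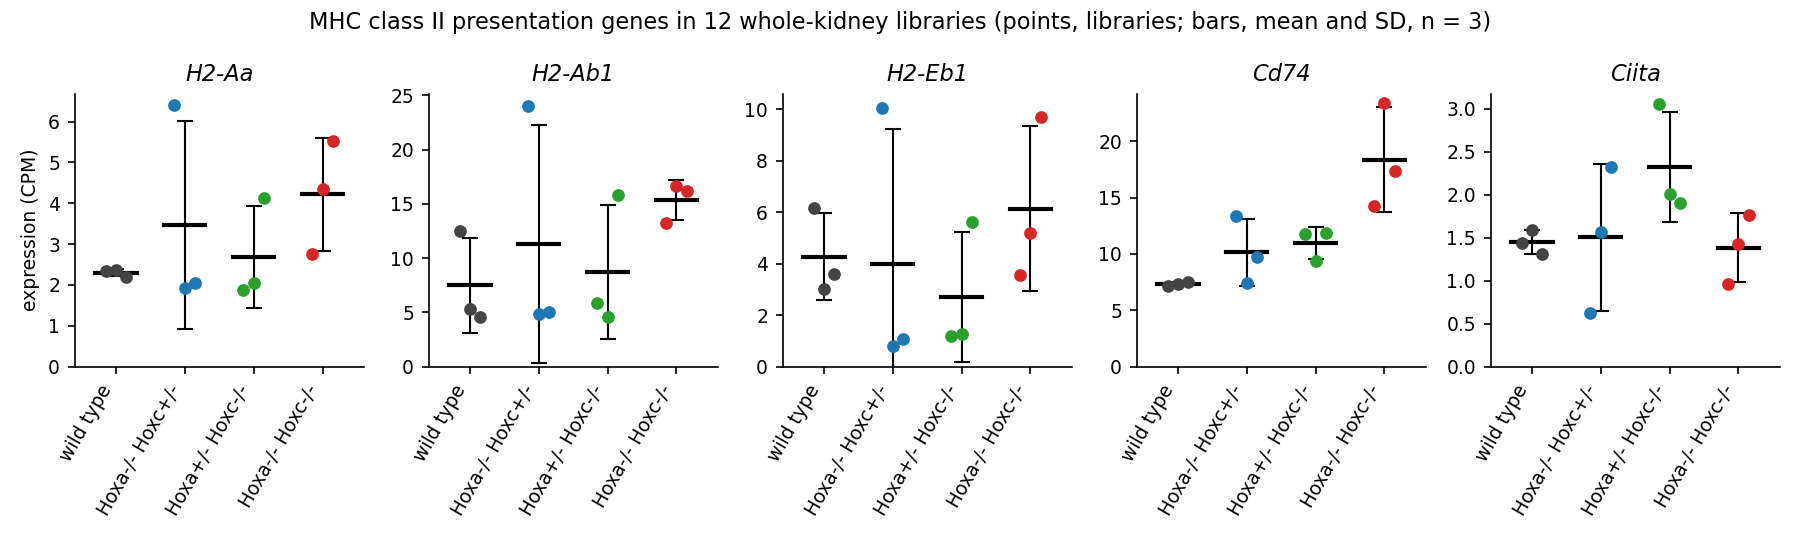
Expression of the 5 MHC class II presentation genes in CPM (vertical axes, each starting at 0) by genotype (horizontal axes). Points are libraries and black bars the mean and SD of 3, drawn no lower than 0. H2-Ab1 in Hoxa-/- Hoxc-/- kidneys lies at 13.2 to 16.7 CPM and its highest point, 23.99 CPM, is Hoxa-/- Hoxc+/- embryo 20.

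Within each set of 5 genes some went together across libraries and some did not. Over the 9 libraries without Hoxa-/- Hoxc-/-, which stand as a separate cluster in the proteases, Cma1 and Cpa3 correlated in log2 CPM at Pearson r = 0.94 and Cma1 and Tpsb2 at 0.86. Over all 12 these were 0.98 and 0.96 (Spearman rho 0.96 and 0.97). Kit correlated with Cma1 at -0.31 over the 9 and -0.71 over the 12 libraries (rho -0.69). For H2-Ab1, the values over 12 libraries were 0.86 with H2-Eb1 and -0.55 with Ciita (rho 0.74 and -0.38). Over the 9 they were 0.85 and -0.58, and without embryo 20 they were 0.82 and -0.34. Genotype, sequencing run and depth differ among these libraries, and the values are a description.

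**Figure D3:**
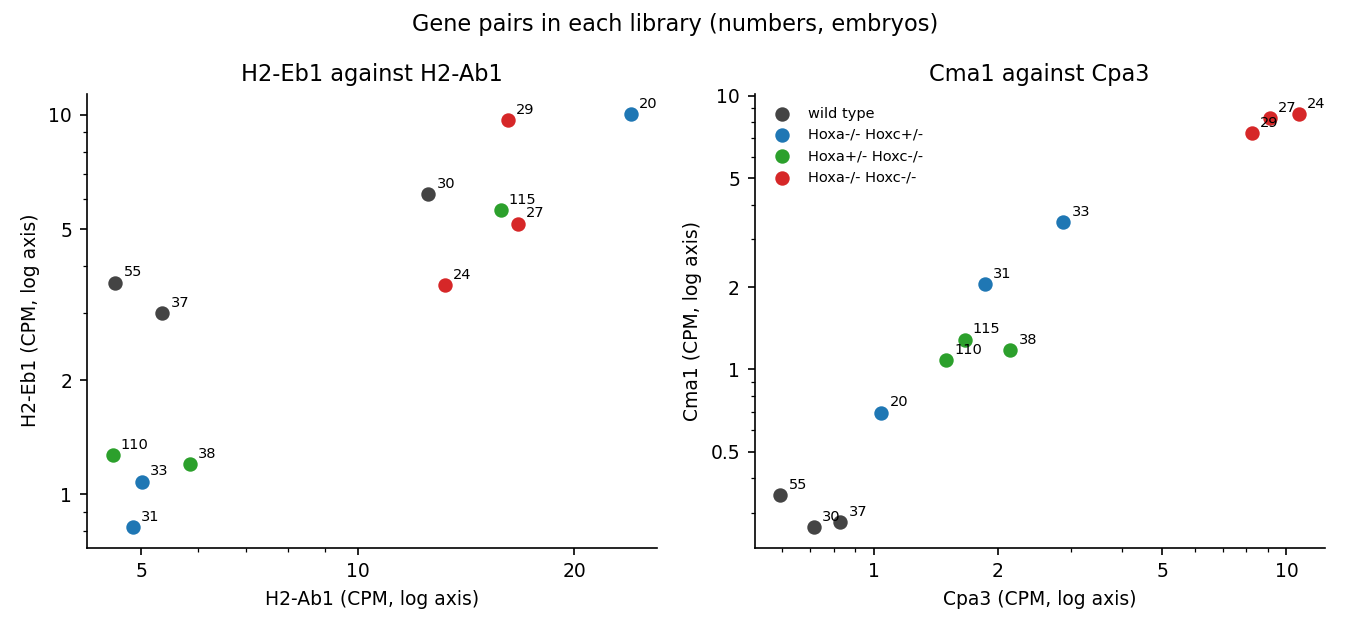
H2-Eb1 against H2-Ab1 and Cma1 against Cpa3, in CPM on log axes, with 1 point for each library, coloured by genotype and numbered by embryo. Cma1 and Cpa3 lie along a line from wild type to Hoxa-/- Hoxc-/-, while H2-Eb1 differs between libraries of like H2-Ab1, as in wild type embryo 37 at 3.00 CPM and Hoxa-/- Hoxc+/- embryo 33 at 1.08 CPM.

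Hoxa-/- Hoxc-/- kidneys were compared with wild type within 1 sequencing run, to ask what differs in embryos labelled as mutant for both sets of Hox genes. By the study's text these embryos kept some Hoxa11, so the values are not those of losing every gene of both sets. The mast cell proteases were the members that differed most, with log2 fold changes (SE, standard error) of 4.75 (SE 0.21) for Cma1, 3.70 (SE 0.20) for Cpa3 and 3.55 (SE 0.30) for Tpsb2, while Kit was at -0.24 (SE 0.08). Among class II genes the values were 1.32 (SE 0.18) for Cd74, 1.04 (SE 0.35) for H2-Ab1, 0.87 (SE 0.26) for H2-Aa, 0.53 (SE 0.41) for H2-Eb1 and -0.07 (SE 0.28) for Ciita. That of H2-Eb1 was 0.04 to 0.90 over the fits without 1 library and 0.47 to 1.68 under the other alternatives. Of the 10 members 9 passed the filter on low counts and Mcpt4 did not. With the quasi-likelihood method of edgeR and p-values adjusted after Benjamini and Hochberg, 1 of 5 class II members (Cd74) and 3 of 5 mast cell members (Cma1, Cpa3 and Tpsb2) were past the threshold of 0.05, beside 13.7% of all 15839 genes tested, and since the members were selected on this contrast nothing is read from these counts. For the same reason nothing is read from the lack of overlap, which held for 7 members higher and 1 lower, beside 38.1% of all genes tested.

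Over all genes, 2171 were past the threshold in this comparison, 999 of them higher and 1172 lower, so that 46% were higher. With library sizes alone in place of TMM factors that share was 31%. The count rested on which libraries were in the fit: it was 3386 without wild type embryo 30, 535 without 37, 633 without 55, 793 without Hoxa-/- Hoxc-/- embryo 24 and 1101 without 27. In every one of these fits Cd74, Cma1, Cpa3 and Tpsb2 were past the threshold. H2-Ab1 was past it without wild type embryo 30, where its log2 fold change was 1.63, and H2-Aa without Hoxa-/- Hoxc-/- embryo 24, where it was 1.10, and DESeq2 placed both past it. Kit was past it with library sizes alone. Ciita changed sign without wild type embryo 37, to 0.02, and without Hoxa-/- Hoxc-/- embryo 24, to 0.14. Mcpt4, where it was tested, was past it with no filter, without wild type embryo 30 and without Hoxa-/- Hoxc-/- embryo 29, and not without wild type embryo 37 or 55.

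**Figure D4:**
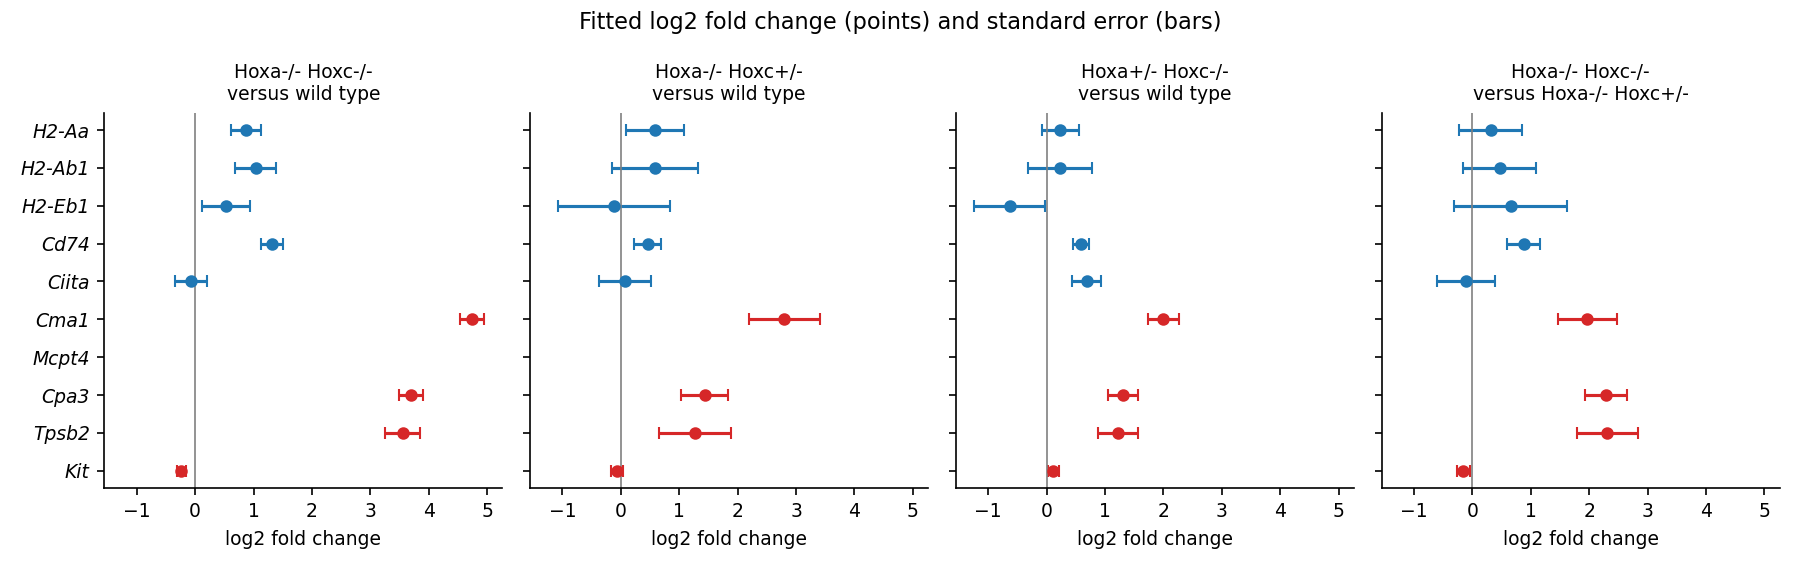
Log2 fold change of each tested member (points) with its standard error (bars) in the 4 comparisons, on 1 shared horizontal axis. Cma1, Cpa3 and Tpsb2 are right of 0 in each, up to 4.75 for Cma1 in Hoxa-/- Hoxc-/- against wild type, and Mcpt4 has no point because it was not tested.

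The other genes of mast cells were described by a list of 18, of which 11 were tested. In Hoxa-/- Hoxc-/- kidneys 3 rose against wild type and none fell, and the median log2 fold change of the list was 0.34 beside -0.01 over all genes tested. In this comparison 13.7% of all genes tested were past the threshold in either direction. This list and those below were chosen with earlier results of these data known, so nothing is read from how many of their genes passed. The tryptase Tpsab1 was at 0.769, 0.623 and 1.09 CPM in wild type and 4.78, 5.35 and 2.31 CPM in Hoxa-/- Hoxc-/- kidneys, and rose by a log2 fold change of 2.32 (SE 0.37, adjusted p = 0.00986). Its call was lost without wild type embryo 37, and over the alternatives tried the value was 2.10 to 2.86. Il1rl1, the receptor for interleukin 33, was at 0.398, 0.369 and 0.322 CPM and 2.12, 0.688 and 1.29 CPM and rose by 1.90 (SE 0.44, adjusted p = 0.0316), a call that held in 2 of the 6 fits without 1 library, those without wild type embryo 30 or Hoxa-/- Hoxc-/- embryo 27, and was also lost with Xist as covariate and limma, with values of 1.44 to 2.22 over the alternatives. Fcer1g, the signalling chain that mast cells share with macrophages, rose by 0.85 (SE 0.14, adjusted p = 0.0110) and lost its call without wild type embryo 37 and with all 12 libraries together, the 9 libraries of 1 run and Xist as covariate, with values of 0.79 to 1.12 over the alternatives. These p-values are from edgeR with Benjamini-Hochberg adjustment.

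Several genes of this list were at or near 0. Fcer1a, the alpha chain of the IgE receptor, had 0 to 5 counts over the 12 libraries, Cma2 0 to 2 and Mcpt1 0 to 2. The receptor genes Mrgprb2 and Mrgprb1 had 3, 4 and 2 and 2, 2 and 0 counts in Hoxa-/- Hoxc-/- kidneys and 0 in the other 9 libraries, and were not tested. Ms4a2, the beta chain of that receptor, was at 1.27, 1.43 and 0.619 CPM in wild type and 1.75, 1.27 and 0.824 CPM in Hoxa-/- Hoxc-/- kidneys, with overlap. The name mast cell genes thus rests here mainly on granule proteases, and the IgE receptor chain Fcer1a was not detectable above the floor in 11 of 12 libraries.

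The most abundant gene of the list was Hdc, which makes histamine, at 117 to 564 CPM over the 12 libraries, so that the summed level of the list, 464, 357 and 323 CPM in wild type, 207, 407 and 524 CPM in Hoxa-/- Hoxc+/-, 566, 441 and 424 CPM in Hoxa+/- Hoxc-/- and 664, 604 and 455 CPM in Hoxa-/- Hoxc-/- kidneys, is mostly that of Hdc. Its wild type mean was 286 CPM, against 0.296 CPM for Cma1 and 0.713 CPM for Cpa3. Which cells carried Hdc was not tested, so the sum is not read as a level of mast cells. Hdc was at 370.3, 262 and 227 CPM in wild type and 564, 488 and 360.1 CPM in Hoxa-/- Hoxc-/- kidneys. Its log2 fold change of 0.72 (SE 0.21, adjusted p = 0.0636 by edgeR) did not pass the threshold. Gata2, at 45.1, 49.3 and 51.6 CPM and 40.7, 52.9 and 44.7 CPM, and Mitf, at 27.6, 23.4 and 22.8 CPM and 24.01, 30.4 and 20.9 CPM, overlapped between these groups. Both factors have other known sites of expression in kidney and other tissues. Of 10 genes of Kit ligand and signalling, all tested, Pik3r1 rose, by 0.40 (SE 0.09, adjusted p = 0.0255), and Plcg1 had a log2 fold change of -0.30 (SE 0.06, adjusted p = 0.0245). Both calls were lost without wild type embryo 37 or 55 or Hoxa-/- Hoxc-/- embryo 24 or 27, with values of 0.33 to 0.46 for Pik3r1 and -0.39 to -0.27 for Plcg1 over the alternatives. That of Pik3r1 was also lost with the 9 libraries of 1 run, Xist as covariate and limma, and that of Plcg1 with all 12 libraries together, the 9 libraries of 1 run and limma. Kitl, the ligand of Kit, was at 76.9, 79.8 and 90.7 CPM and 79.9, 77.9 and 78.3 CPM, with overlap, and the median of the list was -0.06.

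The other genes of class II presentation were described by a list of 12. Of these 10 were tested and none was past the threshold in Hoxa-/- Hoxc-/- against wild type kidneys by edgeR, where 5131 genes had an unadjusted p below 0.05. The median log2 fold change of the list was 0.11. H2-DMa, which loads peptides, was at 8.43, 9.80 and 6.66 CPM in wild type and 10.4, 8.38 and 9.67 CPM in Hoxa-/- Hoxc-/- kidneys, with overlap. Rfx5, which binds the X box, was at 22.8, 26.6 and 30.9 CPM and 21.4, 17.7 and 20.3 CPM, with a log2 fold change of -0.44 (SE 0.13, adjusted p = 0.0662) and no overlap. Ctss, the protease that trims Cd74, was at 6.66, 6.74 and 7.50 CPM and 13.2, 11.4 and 7.25 CPM, with a log2 fold change of 0.61 (SE 0.22, adjusted p = 0.0994). The list was dominated by Lgmn, another endosomal protease, at 114.99 to 499 CPM.

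Genes of MHC class I presentation and of the response to interferon gamma are known to move with class II genes in inflammation, and were examined for that reason. Of 9 class I genes 8 were tested, 1 rose (Tapbp, by 0.47 (SE 0.12, adjusted p = 0.0426 by edgeR)) and the median was 0.49. This count stands beside 13.7% of all genes past the threshold. The Tapbp call held in 1 of the 6 fits without 1 library, that without Hoxa-/- Hoxc-/- embryo 29, and was also lost with library sizes alone, the study's filter, the 9 libraries of 1 run, Xist as covariate and limma, with values of 0.32 to 0.57 over the alternatives. H2-K1 was at 28.1, 26.1 and 23.0 CPM in wild type and 47.7, 64.2 and 23.9 CPM in Hoxa-/- Hoxc-/- embryos 24, 27 and 29, so that embryo 29 was within the wild type range while 24 and 27 were above it. The summed class I level was 289.5, 289 and 261 CPM and 397, 480.3 and 287 CPM, with B2m the most abundant gene on average, at 78.0 to 223 CPM over the 12 libraries.

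Of 12 interferon gamma response genes 10 were tested and 2 rose, beside 13.7% of all genes past the threshold, and nothing is read from this count. The guanylate-binding protein gene Gbp2 was at 3.08, 3.48 and 2.75 CPM in wild type and 6.92, 8.51 and 6.02 CPM in Hoxa-/- Hoxc-/- kidneys, a log2 fold change of 1.20 (SE 0.19, adjusted p = 0.00871) by edgeR whose call held in each fit without 1 library. The chemokine gene Cxcl10 was at 1.06, 0.830 and 0.767 CPM and 4.75, 10.4 and 2.67 CPM, and rose by 2.74 (SE 0.49, adjusted p = 0.0144), a call lost without wild type embryo 37 or 55 and with the 9 libraries of 1 run, with values of 2.07 to 3.61 over the alternatives. Ifng itself had 0 counts in all 12 libraries. Irf1, at 14.4, 15.4 and 14.2 CPM and 15.2, 17.7 and 13.4 CPM, overlapped between these groups, and the median of the list was 0.09. Its sum ranged from 392 to 504 CPM, with Jak1 the most abundant at 192 to 244 CPM.

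Macrophages carry class II molecules, and their markers were described for that reason. Of 11 macrophage markers, all tested, 8 rose in Hoxa-/- Hoxc-/- against wild type kidneys, none fell, and the median log2 fold change was 1.07. Mrc1, the mannose receptor, was at 23.6, 22.5 and 20.9 CPM in wild type and 58.9, 58.0 and 50.9 CPM in Hoxa-/- Hoxc-/- kidneys and rose by 1.32 (SE 0.09, adjusted p = 6.7e-04). Cd163, a scavenger receptor, rose by 1.75 (SE 0.27, adjusted p = 0.00847) and Adgre1, the F4/80 antigen, by 1.46 (SE 0.20, adjusted p = 0.00639). The summed level of the markers was 109, 102 and 99.9 CPM in wild type, 127, 108 and 113 CPM in Hoxa-/- Hoxc+/-, 111, 118 and 139 CPM in Hoxa+/- Hoxc-/- and 248, 239 and 183 CPM in Hoxa-/- Hoxc-/- kidneys, with Csf1r the most abundant on average, at 21.2 to 61.2 CPM, and Mrc1 above it in some libraries. In embryo 20, which had the most H2-Ab1, the markers were not alike, with the least Csf1r of the 12 libraries and C1qa, at 15.2 CPM, above every wild type library. Of the 8 calls, those of C1qb and C1qc were lost without wild type embryo 37 or 55 or Hoxa-/- Hoxc-/- embryo 24 or 27, with values of 0.53 to 0.99 and 0.72 to 1.15 over the alternatives. They were also lost with all 12 libraries together, the 9 libraries of 1 run and limma, and that of C1qb with library sizes alone and the study's filter too. What part of the class II transcripts came from these cells was not tested.

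Connective tissue is where mast cells of this kind are known to reside. Of 8 markers of fibroblasts and connective tissue, all tested, 7 rose and none fell, with a median of 1.72. Their summed level was 4056, 4085 and 3865 CPM in wild type, 5537, 5697 and 4279 CPM in Hoxa-/- Hoxc+/-, 4982, 6305 and 6933 CPM in Hoxa+/- Hoxc-/- and 11198, 13650 and 12284 CPM in Hoxa-/- Hoxc-/- kidneys. Col3a1 was the most abundant, at 1433 to 5122 CPM. Lum, which codes for the proteoglycan lumican, rose by 3.04 (SE 0.22, adjusted p = 8.1e-04). The part of these cells in the protease levels was not tested.

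Ptprc, the CD45 antigen of all leukocytes, was at 14.7, 14.5 and 13.5 CPM in wild type and 17.6, 15.5 and 16.6 CPM in Hoxa-/- Hoxc-/- kidneys, a log2 fold change of 0.22 (SE 0.10, adjusted p = 0.171). Markers of other cells that carry class II molecules were scarce. Of 10 dendritic cell markers 4 were tested, none passed the threshold and the median was -0.08, and Itgax, Flt3, Cd209a and Ccr7 had at most 14 counts in any library. The sum of that list was 21.6, 20.1 and 20.5 CPM in wild type and 18.4, 20.6 and 18.9 CPM in Hoxa-/- Hoxc-/- kidneys, in these libraries mostly Zbtb46, at 5.87 to 20.2 CPM over all 12, which endothelium is also known to express. Of 6 B cell markers 2 were tested and neither passed the threshold, with a median of -0.51. Pax5 had 0 to 2 counts and Ms4a1 0 to 4, and the sum of 4.74 to 9.04 CPM was mostly Cd79b, at 4.03 to 7.30 CPM.

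T and NK cell markers were at or near 0, with Trac at 0 counts in all libraries and Cd3e at 0 to 3. Of the 8 markers 2 were tested, with a median of 0.52, and Cd4, which macrophages can also carry, rose by 1.05 (SE 0.28, adjusted p = 0.0451), a call kept without wild type embryo 30 and lost in the other 5 fits without 1 library and with library sizes alone, no filter, all 12 libraries together, the 9 libraries of 1 run and Xist as covariate, with values of 0.44 to 1.21 over the alternatives. Their sum was 0.618 to 2.34 CPM, with Cd4 the most abundant on average, at 0.155 to 1.70 CPM. Of 9 basophil and neutrophil markers 2 were tested and neither passed, with a median of -0.28 and a sum of 2.66 to 8.19 CPM. The basophil protease gene Mcpt8 had 0 to 2 counts and the neutrophil gene Ly6g 0 in all libraries, and S100a9 was the most abundant on average, at 1.16 to 3.82 CPM. Prss34, a protease of basophils and mast cells, had 0, 0 and 2 counts in wild type and 18, 9 and 14 in Hoxa-/- Hoxc-/- kidneys and was not tested.

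Of 7 markers of haematopoietic progenitors 5 were tested, Spi1 rose by 0.73 (SE 0.19, adjusted p = 0.0457) and Myb had a log2 fold change of -0.95 (SE 0.20, adjusted p = 0.0230), with a median of -0.14. The Spi1 call held only without Hoxa-/- Hoxc-/- embryo 29 among the fits without 1 library, and that of Myb only without wild type embryo 30 or Hoxa-/- Hoxc-/- embryo 29, with values of 0.62 to 0.85 and -1.04 to -0.78 over the alternatives. That of Spi1 was also lost with library sizes alone, all 12 libraries together, the 9 libraries of 1 run, Xist as covariate and limma, and that of Myb with the 9 libraries of 1 run and Xist as covariate. The sum of this list was 128 to 199.7 CPM, mostly Cd34, at 108 to 179 CPM, which endothelium also expresses. Of 5 endothelial markers, all tested, none passed the threshold by edgeR and the median was 0.22, with a sum of 558 to 797 CPM and Cdh5 the most abundant at 175 to 240.0 CPM.

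The labelled tissue was checked by 12 kidney markers, all of which were present. Their sum was 4480, 3233 and 3150 CPM in wild type and 4356, 5600 and 3914 CPM in Hoxa-/- Hoxc-/- kidneys, with Cdh16 at 345 to 1030 CPM over the 12 libraries. Ret of the ureteric bud had a log2 fold change of -1.77 (SE 0.28, adjusted p = 0.00958), with a median of 0.18 over the 12. In the library of embryo 20 the sum was 1981 CPM, the lowest of the 12, and Six2 of nephron progenitors, at 164 CPM, was the highest.

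**Figure D5:**
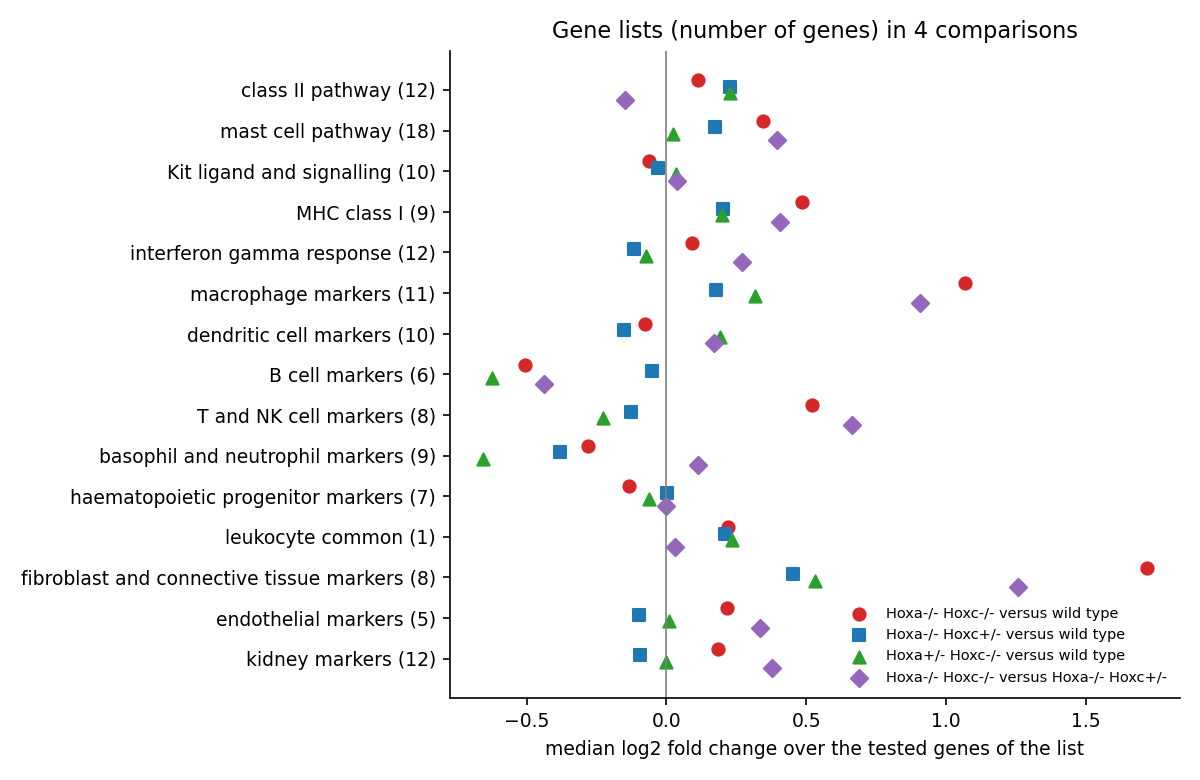
Median log2 fold change over the tested genes of each list (horizontal axis) in the 4 comparisons, with the number of genes in the list in brackets. Points of a list are set slightly apart in height. The fibroblast and connective tissue markers (1.72) and the macrophage markers (1.07) lie farthest right in Hoxa-/- Hoxc-/- against wild type.

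Hoxa-/- Hoxc+/- kidneys were compared with wild type in the same run, to ask what loss of the Hoxa genes changes with a normal copy of each Hoxc gene kept. The proteases were higher on average, with log2 fold changes of 2.80 (SE 0.60) for Cma1, 1.44 (SE 0.41) for Cpa3 and 1.27 (SE 0.62) for Tpsb2, while Kit was at -0.07 (SE 0.10). The class II values were 0.58 (SE 0.50) for H2-Aa, 0.59 (SE 0.74) for H2-Ab1, -0.12 (SE 0.96) for H2-Eb1, 0.46 (SE 0.23) for Cd74 and 0.07 (SE 0.45) for Ciita. They rested on embryo 20: without it they were -0.21, -0.60, -2.17, 0.21 and 0.42 in the same order, so that H2-Aa and H2-Ab1 changed sign. H2-Eb1 changed sign without embryo 30 of wild type (0.25), 31 (0.37) or 33 (0.34) and Ciita without 33 (-0.38). Without embryo 20 the proteases were at 3.19, 1.71 and 1.68.

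No member passed the threshold by edgeR in that comparison, beside 0% of 15789 genes tested, and nothing is read from this count. An unadjusted p below 0.05 was reached by 360 genes, DESeq2 placed 22 past the threshold, Cma1 among them, limma 1, and without embryo 20 edgeR placed 8. Cma1, Mcpt4 and Cpa3 were higher in each of these libraries than in any wild type library, as were 0 of the 5 class II members. Of all genes tested 8.35% did not overlap between these groups, and nothing is read from this either. In the lists no gene passed, and the medians were 0.17 for mast cell genes, 0.23 for class II genes, 0.18 for macrophage markers and 0.45 for fibroblast markers, beside 0.03 over all genes. Without embryo 20 these medians were -0.11, 0.18, 0.13 and 0.34, so that of the mast cell genes changed sign.

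Hoxa+/- Hoxc-/- kidneys were compared with wild type across sequencing runs, so that genotype and run cannot be told apart in what follows. The log2 fold changes were 2.00 (SE 0.27) for Cma1, 1.31 (SE 0.25) for Cpa3, 1.23 (SE 0.34) for Tpsb2 and 0.11 (SE 0.09) for Kit. In class II genes they were 0.59 (SE 0.13) for Cd74, 0.68 (SE 0.24) for Ciita, 0.24 (SE 0.32) for H2-Aa, 0.24 (SE 0.55) for H2-Ab1 and -0.63 (SE 0.61) for H2-Eb1. Without the last embryo those of H2-Aa, H2-Ab1 and H2-Eb1 were -0.22, -0.52 and -1.77, and without wild type embryo 55 that of H2-Ab1 was -0.02. Of the mast cell members 2 of 5 (Cma1 and Cpa3) and of the class II members 0 of 5 were past the threshold, beside 2.36% of 15902 genes, and nothing is read from these counts. The call of Cpa3 was lost in each of the 6 fits without 1 library and that of Cma1 in 4, without wild type embryo 37 or 55 or Hoxa+/- Hoxc-/- embryo 110 or the last, while the values were 1.14 to 1.43 and 1.84 to 2.12 over the alternatives. Both calls were also lost with all 12 libraries together and Xist as covariate, and that of Cpa3 with no filter. DESeq2 also placed Tpsb2 and Cd74 past the threshold.

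Over all genes 376 were past the threshold there, and 60 without wild type embryo 37, 70 without 55, 63 without Hoxa+/- Hoxc-/- embryo 110 and 99 without the last. In the lists Kitl had a log2 fold change of -0.41 (SE 0.08, adjusted p = 0.0444) by edgeR, at 76.9, 79.8 and 90.7 CPM in wild type and 62.8, 61.3 and 61.0 CPM in Hoxa+/- Hoxc-/- kidneys, and this call held only without wild type embryo 30 among the fits without 1 library, with values of -0.47 to -0.34 over the alternatives, and was also lost with library sizes alone, all 12 libraries together, Xist as covariate and limma. H2-D1, a class I chain, rose by 0.63 (SE 0.11, adjusted p = 0.0376) and the dendritic cell marker Xcr1, at 0.617, 0.921 and 0.622 CPM, by 1.98 (SE 0.38, adjusted p = 0.0485). Each was lost without wild type embryo 37 or 55 or Hoxa+/- Hoxc-/- embryo 110 or the last, and Xcr1 also without each other library, with values of 0.54 to 0.73 and 1.73 to 2.19 over the alternatives. Both were also lost with all 12 libraries together, Xist as covariate and limma, and Xcr1 with no filter. Of the fibroblast markers Col3a1, Lum and Postn rose, by 0.52 (SE 0.09, adjusted p = 0.0375), 1.08 (SE 0.15, adjusted p = 0.0196) and 0.69 (SE 0.12, adjusted p = 0.0376), and each kept its call in 2 of the 6 fits without 1 library. All were lost without wild type embryo 37 or 55 or Hoxa+/- Hoxc-/- embryo 110, Col3a1 and Lum also without the last and Postn without wild type embryo 30, with values of 0.46 to 0.57, 0.96 to 1.19 and 0.54 to 0.78 over the alternatives. Those of Col3a1 and Postn were also lost with all 12 libraries together, Xist as covariate and limma, and that of Lum with limma. No macrophage marker passed, and of the kidney markers Ret did, with -0.52 (SE 0.10, adjusted p = 0.0435), a call that held only without wild type embryo 30 among the fits without 1 library, with values of -0.59 to -0.46 over the alternatives, and was also lost with library sizes alone, all 12 libraries together, Xist as covariate and limma. The medians were 0.02 for mast cell genes, 0.23 for class II genes, 0.32 for macrophage markers and 0.53 for fibroblast markers, beside 0.01 over all genes.

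Hoxa-/- Hoxc-/- kidneys were compared with Hoxa-/- Hoxc+/- kidneys, whose labels differ in the Hoxc genes. By the study's text the Hoxa11 alleles differ from the label too, so the parts of Hoxc and Hoxa11 cannot be told apart. Cma1, Cpa3 and Tpsb2 were higher in each Hoxa-/- Hoxc-/- library, while Mcpt4 overlapped, with log2 fold changes of 1.97 (SE 0.50) for Cma1, 2.29 (SE 0.36) for Cpa3 and 2.31 (SE 0.52) for Tpsb2, and so was Cd74, with 0.88 (SE 0.28). Of all genes tested 23% did not overlap between these groups, and nothing is read from the members that did not. The other values were 0.31 (SE 0.54) for H2-Aa, 0.47 (SE 0.63) for H2-Ab1, 0.66 (SE 0.97) for H2-Eb1, -0.11 (SE 0.49) for Ciita and -0.15 (SE 0.12) for Kit. Without embryo 20 the chains were at 1.10, 1.66 and 2.71 and Cd74 at 1.13. Over the fits without 1 library the lowest values of H2-Aa, H2-Ab1 and H2-Eb1 were 0.01, 0.10 and 0.16. Ciita changed sign without embryo 33 (0.32) or 24 (0.10). This comparison shares its libraries with the preceding ones.

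No gene passed the threshold by edgeR in that comparison, so that 0 of 10 members stand beside 0% of 15764 genes, and nothing is read from this. An unadjusted p below 0.05 was reached by 1787 genes. DESeq2 placed 554 genes past the threshold, Cma1, Cpa3 and Tpsb2 among them, limma placed 1, and without embryo 20 edgeR placed 687, among them H2-Ab1, H2-Eb1, Cd74, Cma1, Cpa3 and Tpsb2. In that fit 5 of 11 macrophage markers, 6 of 8 fibroblast markers and Fcer1g, Gbp2, Cd34 and Spi1 were higher and past the threshold, and Cbl was lower. The median of the macrophage markers was 0.91 with embryo 20 and 1.06 without it, and that of the fibroblast markers 1.26 and 1.40.

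The genes most like the mean of the 5 mast cell genes over the 12 libraries, by Pearson correlation of log2 CPM, were F13a1, Rap2a, Fhl5, Yipf3, Cd163, Kctd12, Gpr37 and Ehd2, with r from 0.94 to 0.97. Over the 9 libraries without Hoxa-/- Hoxc-/- their r was lower, from 0.68 for Ehd2 to 0.91 for Rap2a. The mean includes Kit, which correlated with the mean of the other members at -0.71 over the 12 libraries. F13a1 codes for the A chain of coagulation factor XIII, which tissue macrophages are known to make, and its group means were 20.9 CPM in wild type, 26.9 CPM in Hoxa-/- Hoxc+/-, 27.2 CPM in Hoxa+/- Hoxc-/- and 59.4 CPM in Hoxa-/- Hoxc-/- kidneys. Its rho was 0.94 and its r over the 9 libraries without Hoxa-/- Hoxc-/- was 0.83. Cd163, the macrophage marker above, had r = 0.94 over the 12 libraries and 0.87 over the 9, with a rho of 0.94. Fhl5 rests on 0 to 17 counts a library.

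For the mean of the 5 class II genes they were Pirt, Trim17, Agpat1, Rab40b, 5730409E04Rik, H2-Q7, C330046G13Rik and Serpina3h, with r from 0.89 to 0.94. H2-Q7, a nonclassical class I gene of the MHC (chromosome 17 from 35439140 to 35443773), had group means of 4.69 CPM in wild type, 6.37 CPM in Hoxa-/- Hoxc+/-, 3.97 CPM in Hoxa+/- Hoxc-/- and 12.4 CPM in Hoxa-/- Hoxc-/- kidneys, with r = 0.89, rho = 0.78 and r = 0.91 over the 9. Agpat1, an enzyme of phospholipid synthesis, also lies near the class II genes (chromosome 17 from 34604195 to 34613449), with r = 0.91, rho = 0.97 and r = 0.88 over the 9. Pirt and C330046G13Rik rest on few reads, with 0 to 21 and 5 to 18 counts a library. These genes are the top of a ranking of all genes on the same libraries, and the values are a description.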

How the data were processed

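RNA of 12 whole kidneys was sequenced by the authors as paired reads of 75 bases. The authors aligned them to mm10 in Strand NGS, removed reads that map to more than 1 place, and deposited expected counts per gene with log2 values. Of the deposited expected counts 41% are not whole, and they were rounded. Tests used the rounded counts in R 4.3.3 with edgeR 4.0.16 (TMM factors, filterByExpr with a minimum count of 10 and a minimum total of 15, quasi-likelihood test, Benjamini-Hochberg adjustment, threshold 0.05), each on the 6 libraries of its comparison, and the code was tested on simulated data. Alternatives were other factors, DESeq2 1.42.0, no filter, the study's own filter (above 10 RPKM in 3 libraries), more libraries in the fit, log2 Xist CPM as a covariate, limma 3.58.1 on the deposited log2 values, and leaving out each library in turn. Python 3.11.15 and matplotlib 3.10.9 served for description and drawing, and lengths are the union of exons in GENCODE release 21 for mouse.

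The 10 members and the 15 lists, with 138 genes beside the members, were chosen with earlier results of these data known. Genes named are the members, genes of the lists, Xist, the Hox genes mutated, and for each set of 5 members the 8 other genes with the highest Pearson correlation to their mean of log2 CPM with 0.5 added. Total counts per library, from 28616878 to 47067926, set a floor of 3 counts. Sets of genes were not tested as sets.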

Additional observations from a re-analysis of the deposited data

How the results depend on the processing

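Cma1, Cpa3, Tpsb2 and Cd74 in Hoxa-/- Hoxc-/- against wild type kidneys passed the threshold under each alternative in which they were tested, from which nothing is read, with log2 fold changes of 4.52 to 4.87, 3.59 to 3.84, 3.33 to 3.97 and 1.10 to 1.47. Of 503 values of members under alternatives, 481 moved by less than 1 SD between libraries and 22 by more, 14 of them on leaving out 1 library and 7 with Xist as covariate. No member that passed the threshold changed sign, while H2-Aa, H2-Ab1, H2-Eb1 and Ciita, where they did not pass it, changed sign under some alternatives. The sign of every tested member was the same with TMM, RLE or no factors and with DESeq2. Of 177 counts 125 stayed within 1.5 times and 52 moved further. The cause was not tested, except that the study's filter tests fewer genes and each fit without 1 library has fewer libraries.

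For Hoxa-/- Hoxc-/- against wild type, the 2171 genes past the threshold became 3380 with DESeq2, 1.0e3 with the study's filter, 1190 with all 12 libraries, 690 with the 9 of 1 run, 984 with Xist as covariate, 1215 with limma and 535 to 3386 leaving out 1 library. Class II members past it were 3 with DESeq2 and 1 to 2 leaving out 1 library, and mast cell members 0 with the study's filter, which none of them met. For Hoxa-/- Hoxc+/- against wild type, the 0 genes became 22 with DESeq2, 2 with all 12 libraries, 1 with limma and 0 to 8 leaving out 1 library, and mast cell members were 1 with DESeq2.

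For Hoxa+/- Hoxc-/- against wild type, the 376 genes became 1318 with DESeq2, 149 with all 12 libraries, 124 with Xist as covariate, 158 with limma and 60 to 549 leaving out 1 library. Class II members were 1 with DESeq2, and mast cell members 1 with no filter, 0 with the study's filter, 0 with all 12 libraries, 0 with Xist as covariate and 0 to 1 leaving out 1 library. For Hoxa-/- Hoxc-/- against Hoxa-/- Hoxc+/-, the 0 genes by edgeR, where 1787 had an unadjusted p below 0.05, became 554 with DESeq2, 1 with no filter, 540 with all 12 libraries, 181 with the 9 of 1 run, 646 with Xist as covariate, 1 with limma and 0 to 687 leaving out 1 library. Class II members were 0 to 3 leaving out 1 library, and mast cell members 3 with DESeq2, 3 with all 12 libraries, 1 with the 9 of 1 run, 3 with Xist as covariate and 0 to 3 leaving out 1 library.

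No paired analysis was possible because the replicate numbers name single embryos and the labels do not give their litters. Whether litters differed between the groups is therefore not known. With 3 libraries a group the spread of each gene is known poorly, and at the depth used a gene below 3 counts in a library is not told from 0. Reads of related tryptases, chymases and class II chains that map to more than 1 place were removed by the authors.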
